A study of Homo sapiens with 6 samples.

Results

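The gene group described here comprised 10 secreted signalling proteins: the interleukins IL1A, IL1B, IL6, IL11, IL18 and IL23A, the IL-6 family cytokine LIF, the CC chemokines CCL2 and CCL5, and the CXC chemokine CXCL10. They were chosen with earlier results of these data known and are the rows of the deposited count table whose Ensembl gene identifiers map to these symbols, and all 10 were found among 60664 genes. How many of them rose is therefore a description of these genes and not evidence about cytokines in general. RNA was sequenced from U-2 OS, a polyploid human osteosarcoma cell line, after transfection of control siRNA (siControl) or of siRNA against SFPQ (siSFPQ). The study's methods give 30 nM as the final siRNA concentration, and the control was a non-targeting siRNA. Each condition had 3 libraries, described by the study as biological triplicates. The labels do not say whether these were separate cultures, and p-values measure the spread between these libraries of 1 cell line. SFPQ is a nuclear RNA- and DNA-binding protein, and the study asked how its loss alters R-loops, repeat stability and, in this experiment, gene expression.

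Cytokines of the IL-1 family are made as precursors and start inflammatory signalling through receptors that recruit the adaptor MYD88. IL-6 family cytokines act through receptors that share the signal-transducing chain IL6ST (gp130) and activate STAT3, whereas IL23A is 1 of the chains of IL-23. CCL2, CCL5 and CXCL10 are chemoattractants for monocytes and T cells, and their genes, like several of the interleukin genes, are classical targets of NF-kB and, for CCL5 and CXCL10, of interferon signalling. Bone tumour and stromal cells are known to secrete several of these proteins.

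Of the 10 genes, 7 rose after SFPQ depletion, 1 fell and 2 did not pass the test. IL1A, IL1B, IL11, IL18, IL23A, CCL5 and CXCL10 rose, CCL2 fell, and IL6 and LIF did not pass. Over all 29022 genes tested, 22.4% rose and 22.1% fell by the same rule, an adjusted p under 0.05 in edgeR's quasi-likelihood test. With the adjustment over the 16477 protein-coding genes alone, 4776 of them rose and 5213 fell, a larger share in each direction. With the added requirement of a log2 fold change past 1.5 in either direction, which are the thresholds of the study's methods, IL1A, IL1B, CCL5 and CXCL10 remained as higher and none of the 10 as lower, while 5.54% of all genes were higher and 4.77% lower. The replicates of both conditions did not overlap in 9 of the 10 genes, with 7 higher and 2 lower in siSFPQ. Such separation was found in 26.9% of all genes for higher and in 25.4% for lower. The median log2 fold change was 1.16 over the 10 genes and 0.02 over all genes tested. All 10 genes passed the filter of at least 10 counts in total, but IL1B and CXCL10 did so through their siSFPQ counts. The calls of IL1B and CXCL10 and the share of the 10 genes that rose are therefore descriptions. Every siControl library had at most 3 counts of these 2 genes, so their fitted fold changes rest on very few siControl reads. For IL1B, the place past the fold threshold rests on a total of 1 siControl read.

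The genes with the largest fitted changes were near 0 counts in siControl, so raw counts are given first throughout. Total counts were 46142855 to 47119203 per siControl library and 43469321 to 45543610 per siSFPQ library. The floor was taken as 3 counts, which correspond to 0.0642 to 0.0676 CPM, the count scaled to the library total as adjusted by TMM. The 10 genes together had 16436 to 17578 counts per siControl library and 22529 to 23467 per siSFPQ library, and IL18 and LIF supplied 94.6% to 96% of them. SFPQ itself had 21753 to 23139 counts in siControl and 3140 to 3863 in siSFPQ (log2 fold change -2.73, SE 0.05, adjusted p = 6.33e-30). SiControl replicate 1 stood apart at low counts: among 8145 genes with few counts in total it had 29.3% at 0, against 17.6% and 15% in the other siControl libraries and 10.0% to 10.5% in siSFPQ. The values of IL1B, IL6, CCL5, CXCL10, ACKR2, CCL4 and CCR1 are therefore also given without it. Leaving out each library in turn, this one included, was among the alternative settings. Why it stood apart was not tested.

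The labelled cell type was checked with marker genes. RUNX2, a transcription factor of the osteoblast lineage, had 2541 to 2681 counts in siControl and 2690 to 2872 in siSFPQ, while SP7 and IBSP, which mark committed osteoblasts, had at most 5 counts in any library. Of 8 leukocyte markers, 2 rose, 1 fell and 5 did not pass or were not tested, with summed counts of 68 to 90 in siControl and 95 to 107 in siSFPQ. The defining T cell gene CD3E had at most 1 count in any library, and the pan-leukocyte gene PTPRC had 26, 30 and 39 counts in siControl and 12, 14 and 5 in siSFPQ. The myeloid genes ITGAM and CSF1R were those that rose, ITGAM from 16, 3 and 1 counts to 39, 21 and 34 (log2 fold change 2.21, adjusted p = 7.07e-04) and CSF1R from 20, 21 and 37 to 44, 40 and 48. The monocyte gene CD14 had 0, 3 and 4 counts in siControl and 7, 9 and 7 in siSFPQ and did not pass (adjusted p = 0.13). Of 3 endothelial and 3 epithelial markers, 2 each rose and 1 each did not pass. Their summed counts went from 194 to 251 in siControl to 303 to 325 in siSFPQ for the endothelial markers, and from 6063 to 6353 to 15008 to 16179 for the epithelial markers, which were mostly KRT18. Of 5 osteoblast markers tested, BGLAP rose from 1 count in total to 17, and COL1A1 (log2 fold change -0.35) and SPP1 (-1.33) fell. BGLAP passed the count filter through its siSFPQ counts, so its call is a description. The counts of markers that rose or fell stand beside 22.4% and 22.1% over all genes tested. The part of these marker changes in the cytokine values was not tested. In RNA from a bulk culture, fewer cells of a type and less RNA per cell cannot be told apart.

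The sequence upstream of 3 genes that passed both thresholds is shown here because the 3 differ in the short elements they carry while all were higher in siSFPQ. Each stretch is from RefSeq (GRCh38.p14), is written 5′ to 3′ on the minus strand, which is the strand of the gene, and ends at the last base before the annotated gene. Capitals mark each match within the stretch to 4 motifs. They were searched on both strands, at any position in windows from 250 bases before to 50 after the start. The motifs include TATAAA, the letters of the TATA box, and TGANTCA, the AP-1 element. Another is the core of the interferon-stimulated response element, written GAAA and again GAAA with any 2 bases between. The last is the NF-kB consensus, by its name. The CXCL10 stretch is chr4:76023498-76023747, the IL1A stretch chr2:112784494-112784743 and the IL1B stretch chr2:112836817-112837029.
CXCL10: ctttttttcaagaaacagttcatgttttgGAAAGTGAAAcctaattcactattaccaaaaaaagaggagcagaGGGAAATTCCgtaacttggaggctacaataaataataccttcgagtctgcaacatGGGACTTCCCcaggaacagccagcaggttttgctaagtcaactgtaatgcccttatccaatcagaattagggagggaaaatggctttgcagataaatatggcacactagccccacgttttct
IL1A: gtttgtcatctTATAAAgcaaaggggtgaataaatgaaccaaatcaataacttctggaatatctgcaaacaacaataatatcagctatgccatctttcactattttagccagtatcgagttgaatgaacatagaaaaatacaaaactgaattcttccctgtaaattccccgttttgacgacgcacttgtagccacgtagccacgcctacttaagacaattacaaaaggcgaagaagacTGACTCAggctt
IL1B: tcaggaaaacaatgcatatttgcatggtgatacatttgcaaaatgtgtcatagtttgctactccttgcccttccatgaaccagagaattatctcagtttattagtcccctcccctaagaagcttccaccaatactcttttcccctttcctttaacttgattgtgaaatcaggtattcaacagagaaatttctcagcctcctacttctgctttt
In CXCL10 the capitals mark, in order, 1 interferon-response core at bases -221 to -212 and 2 NF-kB matches at -177 to -168 and -122 to -113, counted back from the start. In IL1A they mark TATAAA at -239 to -234 and an AP-1 match at -12 to -6, while a second AP-1 match at 39 to 45 after the start lies outside the printed stretch. These IL1A positions are counted from the RefSeq start at base 112784493. From a second RefSeq start, at base 112784400, the same AP-1 matches lay at -105 to -99 and -55 to -49. No TATAAA was matched in the window of that second start. In IL1B no motif was matched.

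RefSeq windows were matched for 6 of the 10 genes, and not for IL18, LIF, CCL2 or CCL5. Among these 6 genes, which had 7 windows, the NF-kB consensus was present in CXCL10, IL23A and IL6, and in 5.91% of all 35116 windows. The 35116 windows belong to 27305 genes. Members were counted by gene and the background by window, so the shares are not in the same unit. TGANTCA, which reads the same on both strands, was present in IL11, IL1A and IL23A, and in 7.71% of all windows. TATAAA was present in IL1A and IL23A (11.5% of windows) and the interferon-response core in CXCL10 (3.57%). Of the genes with an NF-kB match, CXCL10 and IL23A rose and IL6 did not pass the test. A match describes letters and not binding.

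**Figure D1:**
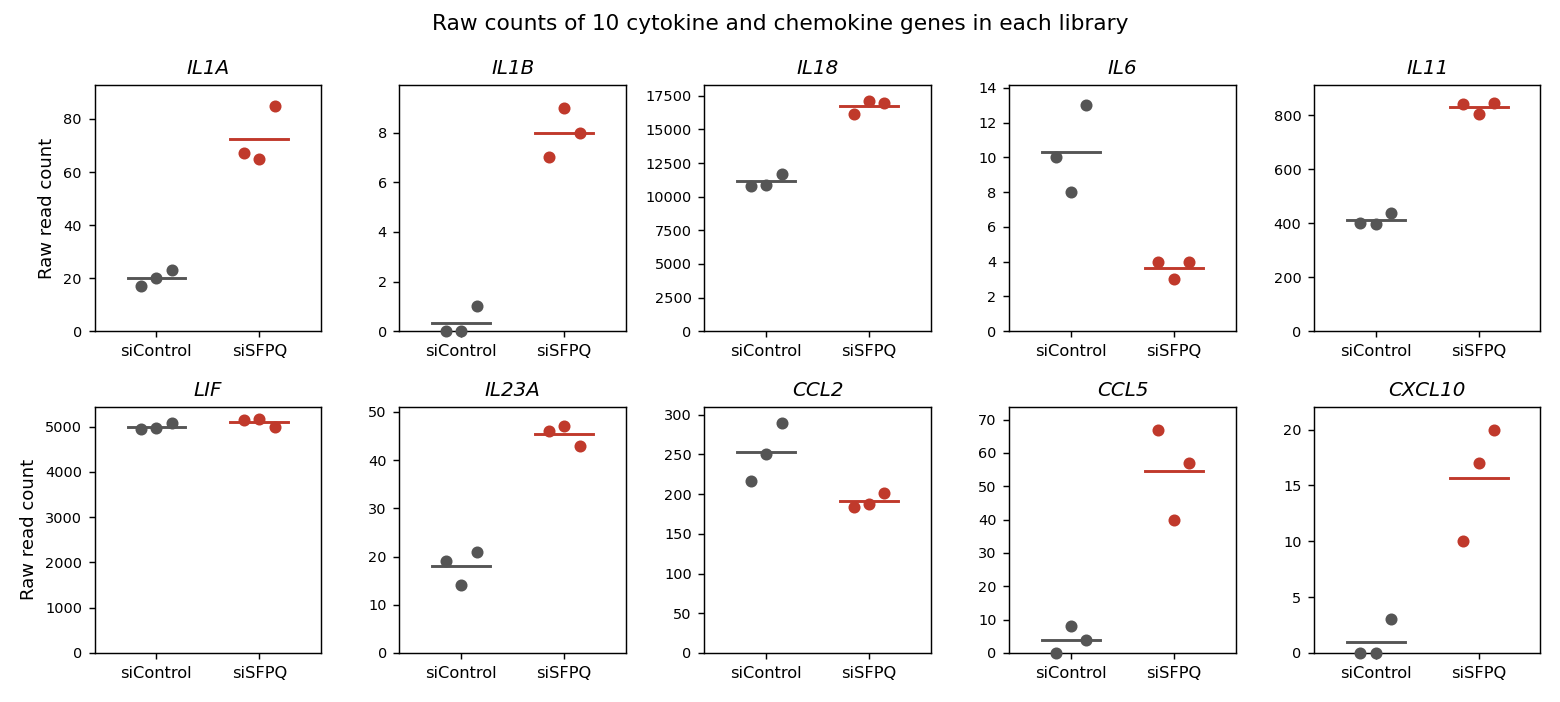
Raw read counts of the 10 genes (vertical axes, each starting at 0) in the 3 siControl libraries (grey) and the 3 siSFPQ libraries (red), replicates 1 to 3 from left to right, with a line at the mean of each condition. LIF is the gene in which the conditions overlap, IL6 and CCL2 are lower in all siSFPQ libraries, and the other 7 genes are higher in all of them, with IL1B, CCL5 and CXCL10 at 8 counts or fewer in every siControl library.

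The IL-1 family was represented by IL1A, IL1B and IL18, and all 3 rose. IL1A (ENSG00000115008, chr2:112773925-112784493, minus strand) encodes interleukin-1 alpha, which can act inside the cell and as an alarm signal when released. It had 17, 20 and 23 counts in siControl and 67, 65 and 85 in siSFPQ. The lowest siSFPQ library thus lay well above the highest siControl library. Normalized counts were 20.0 ± 3.02 (SD, n = 3) and 72.2 ± 10.5, a 3.59-fold difference (log2 fold change 1.84, SE 0.26, adjusted p = 4.1e-07 from edgeR, adjusted by the Benjamini-Hochberg method over all genes tested, as for every adjusted p here). Over 14 alternative settings IL1A remained higher, with adjusted p of 3.81e-10 to 5.12e-05.

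IL1B (ENSG00000125538, chr2:112829751-112836816, minus strand), the inflammatory cytokine that caspase-1 cuts to its active form, had 0, 0 and 1 counts in siControl and 7, 9 and 8 in siSFPQ. Every siSFPQ library was above the 3-count floor and no siControl library was. Set against that floor in place of the siControl counts, the siSFPQ mean of 7.97 normalized counts would stay under the fold threshold. The summed counts of 1 and 24, scaled for library size, gave a ratio of 23.9 with an exact 95% interval of 3.9 to 984, which covers counting error only. The fitted log2 fold change of 4.14 (SE 1.17, adjusted p = 0.004) depends on the prior count and was 2.10 with a prior count of 2. Without siControl replicate 1 it was 3.70 (adjusted p = 0.00927), and without siControl replicate 3, which held the single siControl read, it was 6.02. At its highest, IL1B reached 0.174 CPM on average in siSFPQ, so the rise went from about none to few reads. IL1A and IL1B lie 45.3 kb apart in the IL-1 gene cluster. Of the other cluster genes measured, IL36G, IL36A, IL36RN, IL1F10 and IL1RN had too few counts to be tested and IL36B had 8 counts over siControl and 4 over siSFPQ. IL37, also in this cluster, had 11 counts over siControl and 0 over siSFPQ. Its call as lower is described with the other ligands below and was lost in several alternatives.

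IL18 (ENSG00000150782, chr11:112143253-112164096, minus strand) encodes an IL-1 family cytokine that many cells make constitutively as an inactive precursor and that induces interferon gamma in lymphocytes. Its counts were 10829, 10867 and 11709 in siControl and 16161, 17124 and 16986 in siSFPQ. The conditions were separated by a gap several times wider than the spread within either. IL18 rose 1.5-fold (log2 fold change 0.58, SE 0.04, 95% interval 0.51 to 0.66, adjusted p = 4.83e-15). It was the smallest rise among the 7 and by far the largest in reads, with normalized counts of 11150 ± 509 (SD, n = 3) and 16730 ± 50.4.

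The 3 IL-6 family ligands of the group did not move together: IL11 rose, LIF showed no detectable difference, and IL6 had lower counts that did not pass the test. IL11 (ENSG00000095752, chr19:55364382-55370463, minus strand) encodes a cytokine known for its effects on bone resorption and fibrosis. It had 400, 399 and 440 counts in siControl and 842, 806 and 847 in siSFPQ. The replicates of a condition differed little beside the 2.01-fold rise (log2 fold change 1.01, SE 0.08, 95% interval 0.85 to 1.17, adjusted p = 7.58e-13). Over 14 alternatives its log2 fold change stayed between 0.98 and 1.07.

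LIF (ENSG00000128342, chr22:30240453-30246759, minus strand), leukaemia inhibitory factor, had 4944, 4975 and 5074 counts in siControl and 5141, 5168 and 4985 in siSFPQ. The libraries of the conditions overlapped. The log2 fold change was 0.02 (SE 0.04, adjusted p = 0.667) with a 95% interval of -0.06 to 0.11, or 0.962 to 1.08 as a fold, so that a rise of the size seen for IL18 lay outside the interval. LIF overlaps the antisense transcripts LIF-AS1 and LIF-AS2, which had at most 12 and 117 counts in any library.

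IL6 (ENSG00000136244, chr7:22725884-22732002, plus strand), the founding cytokine of the family, was scarce in these cells. It had 10, 8 and 13 counts in siControl and 4, 3 and 4 in siSFPQ. All siSFPQ libraries were below all siControl libraries, and IL6 was thus the gene of the group with the largest negative value. The log2 fold change was -1.47 (SE 0.69, 95% interval -2.87 to -0.06), with an unadjusted p of 0.0409 in edgeR's test and an adjusted p of 0.0847 (0.0655 to 0.214 over 13 alternatives). Without siControl replicate 1 the log2 fold change was -1.49 (adjusted p = 0.0844). A difference in IL6 was therefore not established at this depth. Exons of IL6 also overlap those of its antisense transcript IL6-AS1 by 428 bases. IL6-AS1 had 12, 15 and 8 counts in siControl and 9, 4 and 0 in siSFPQ, and because the strand setting of the counting is not given in the sources used here, reads of these genes cannot be told apart where they overlap.

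IL23A (ENSG00000110944, chr12:56334174-56340410, plus strand) encodes the p19 chain of IL-23, which must pair with the product of IL12B to form the cytokine. It had 19, 14 and 21 counts in siControl and 46, 47 and 43 in siSFPQ. Every siSFPQ library had more than the highest siControl library, and the 2.50-fold rise passed the test (log2 fold change 1.32, SE 0.31, 95% interval 0.69 to 1.95, adjusted p = 6.02e-04) but not the threshold of 1.5. IL12B, the partner chain, had 0, 2 and 4 counts in siControl and 0, 0 and 1 in siSFPQ, too few to be tested.

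The CC chemokines CCL2 and CCL5 changed in opposite directions. CCL5 (ENSG00000271503, chr17:35871491-35880793, minus strand), also known as RANTES, attracts T cells, eosinophils and monocytes. It had 0, 8 and 4 counts in siControl and 67, 40 and 57 in siSFPQ. Both conditions were spread more widely here than in the abundant genes, but the lowest siSFPQ value was far above the highest siControl value. The summed counts of 12 and 164 gave a ratio of 13.6 (exact 95% interval 7.59 to 26.9, counting error only), and the fitted log2 fold change was 3.73 (SE 0.47, adjusted p = 3.78e-08). Without siControl replicate 1, the library at 0, the log2 fold change was 3.16 (adjusted p = 1.45e-06), and without siControl replicate 2, the library at 8, it was 4.69. An antisense long non-coding gene, ENSG00000270240, spans CCL5 without exon overlap and had 7, 14 and 8 counts in siControl and 1, 2 and 7 in siSFPQ (adjusted p = 0.111).

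CCL2 (ENSG00000108691, chr17:34255274-34257208, plus strand), the monocyte chemoattractant MCP-1, was far more abundant than CCL5 in siControl. It had 217, 251 and 290 counts in siControl and 184, 188 and 201 in siSFPQ. The siControl libraries were spread more widely than the siSFPQ libraries, and the nearest libraries of the conditions were 217 and 201. CCL2 fell to 0.754 of its siControl level (log2 fold change -0.41, SE 0.12, 95% interval -0.65 to -0.16, adjusted p = 0.00575). This call rested on 1 library: without siControl replicate 3 the log2 fold change was -0.30 and the adjusted p 0.061. Its cluster neighbour CCL7, named for its position after its values were seen, had 20, 16 and 19 counts in siControl and 16, 7 and 5 in siSFPQ (adjusted p = 0.118), and CCL8, CCL11, CCL13 and CCL1 were at 0 in every library.

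CXCL10 (ENSG00000169245, chr4:76021118-76023497, minus strand), the interferon-induced chemokine IP-10, attracts activated T cells and NK cells. It had 0, 0 and 3 counts in siControl and 10, 17 and 20 in siSFPQ. No siControl library was above the 3-count floor and every siSFPQ library was. The summed counts of 3 and 47 gave a ratio of 15.6 with an exact 95% interval of 5.03 to 78.4 for counting error. The fitted log2 fold change was 3.80 (SE 0.85, adjusted p = 3.44e-04), and 2.55 with a prior count of 2. Without siControl replicate 1 it was 3.27 (adjusted p = 0.002), and without siControl replicate 3, which held all siControl reads of the gene, 6.98. The flanking interferon-induced chemokine genes, named for their position after their values were seen, did not show this rise. CXCL9 was at 0 in all libraries, and CXCL11 had 19, 8 and 15 counts in siControl and 13, 10 and 18 in siSFPQ (log2 fold change -0.04, adjusted p = 0.96).

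**Figure D2:**
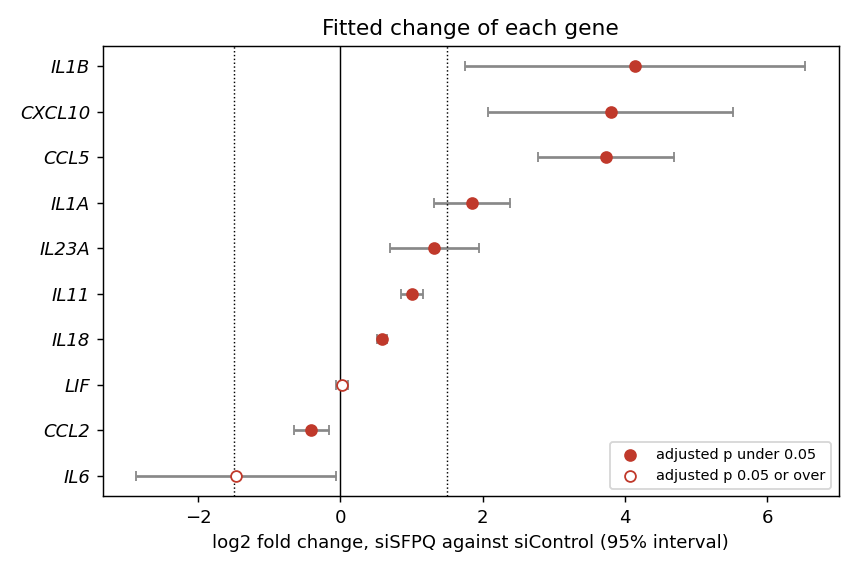
Fitted log2 fold change of siSFPQ against siControl (horizontal axis) for the 10 genes (vertical axis), with 95% intervals from the standard error; filled points passed an adjusted p of 0.05 and dotted lines mark the thresholds of -1.5 and 1.5. The intervals widen with falling counts, from 0.51 to 0.66 for IL18 to 1.75 to 6.53 for IL1B.

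**Figure D3:**
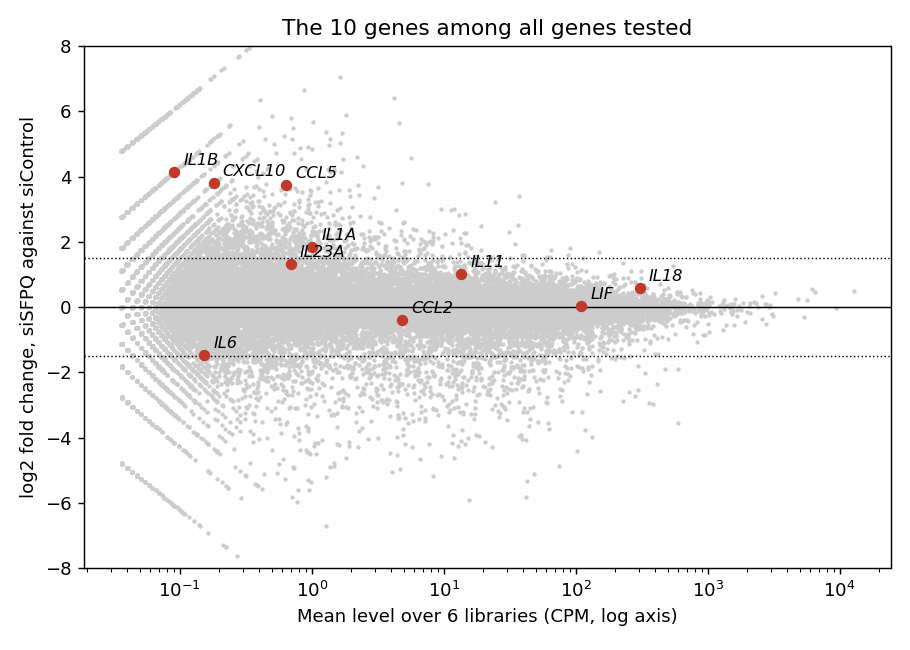
Log2 fold change (vertical axis) against the mean level over the 6 libraries in CPM (horizontal log axis) for the 29022 genes tested (grey) and the 10 genes (red), with dotted lines at -1.5 and 1.5; 7 grey genes lie beyond the vertical axis. IL1B, IL6, CXCL10 and CCL5 lie at the low end, where fitted changes of all genes spread most widely, and IL18 and LIF at the high end, where they spread least.

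Compared per length, as CPM per kilobase of exon, the 10 genes were spread over several orders of magnitude in siControl, the lowest values resting on at most 3 counts. The mean level was 93.6 CPM per kb for IL18, 28.3 for LIF, 3.38 for IL11 and 2.86 for CCL2, and below 1 for the others. IL18 and LIF were thus the abundant transcripts of the group in both conditions, and the ranges of IL11 and CCL2 overlapped in siControl. In siSFPQ the mean level per kb was 140 for IL18, 28.8 for LIF, 6.78 for IL11 and 2.15 for CCL2, with no overlap between these neighbours. CCL5 was at 0.0641 CPM per kb in siControl, where its range overlapped that of IL6 (0.0523), and at 0.878 in siSFPQ, where its range overlapped that of IL23A (0.84). IL1A went from 0.217 to 0.782, and its range overlapped that of IL23A in siSFPQ. CXCL10 went from 0.0186 to 0.289 and IL1B from 0.00243 to 0.0579 CPM per kb, so both remained below IL1A. IL6 was the lowest of the group in siSFPQ, at 0.0186 CPM per kb. These orders are descriptions of levels and depend on the exon lengths taken from the annotation.

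For the 6 members with at least 10 counts in every library, the protein-coding gene with the most similar profile was sought among 16476 genes, as the smallest Euclidean distance over the 6 libraries between log2 normalized counts centred on siControl. OASL was nearest to IL1A (distance 0.19), with a log2 fold change of 1.67. CTHRC1 was nearest to IL11 (0.09), STX6 to IL18 (0.05) and CILP2 to IL23A (0.12). RPRD1A was nearest to LIF (0.05) and ADM to CCL2 (0.08). With 6 libraries in 2 conditions, many genes share such a profile, and the distance describes likeness only.

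The receptors for these ligands were then examined, as a list of 15 subunits of which 12 had enough counts to be tested. IL6R, IL18R1 and CCR3 rose, IL6ST and IL1R1 fell, and 7 did not pass, with a median log2 fold change of -0.03. These counts are near the 22.4% of all genes that rose and the 22.1% that fell. IL6R, the ligand-binding chain for IL-6, had 181, 203 and 187 counts in siControl and 753, 667 and 694 in siSFPQ. It rose 3.69-fold (log2 fold change 1.88, SE 0.10, adjusted p = 1.06e-17), whereas IL6 itself was at 13 counts or fewer. The shared chain IL6ST had 9261, 9728 and 9152 counts in siControl and 7857, 8688 and 8516 in siSFPQ, a small fall (log2 fold change -0.17, adjusted p = 2.76e-04). The specific chains for the other IL-6 family ligands, IL11RA and LIFR, had log2 fold changes of -0.05 (adjusted p = 0.662) and -0.03 (adjusted p = 0.52), values whose sign turned when library size alone was used for scaling.

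IL18R1, the binding chain for IL-18, had 45, 44 and 42 counts in siControl and 113, 90 and 102 in siSFPQ, with no overlap and a 2.32-fold rise (log2 fold change 1.21, SE 0.20, adjusted p = 6.34e-06). Its exons overlap those of IL1RL1 by 95 bases, and IL1RL1 had at most 2 counts. The second chain of that receptor, IL18RAP, had 2 to 6 counts in all libraries, so 1 of the 2 chains was close to absent. IL1R1, the receptor for both IL1A and IL1B, fell slightly (log2 fold change -0.20, adjusted p = 0.0164), a call lost when library size alone was used for scaling (0.106), without siSFPQ replicate 1 (0.0594) and without siSFPQ replicate 3 (0.112). Its accessory chain IL1RAP had a log2 fold change of -0.03 (adjusted p = 0.779), whose sign turned under that scaling. Of the receptors for the chemokines, CCR2 and CXCR3 had at most 4 counts in any library. CCR3, a receptor for CCL5, had 34, 43 and 33 counts in siControl and 44, 57 and 83 in siSFPQ (log2 fold change 0.73, adjusted p = 0.0186), a call lost with DESeq2 (adjusted p = 0.0557), without siControl replicate 3 (0.0598) and without siSFPQ replicate 3 (0.221). CCR1 had 24, 48 and 47 counts in siControl and 31, 25 and 21 in siSFPQ (log2 fold change -0.63, adjusted p = 0.113), and passed the test without siControl replicate 1 (adjusted p = 0.0151). IL23R and IL12RB1, the chains of the IL-23 receptor, had at most 4 counts. Transcripts of the receptor for CXCL10 and of a complete IL-23 receptor were thus near the counting floor in both conditions.

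**Figure D4:**
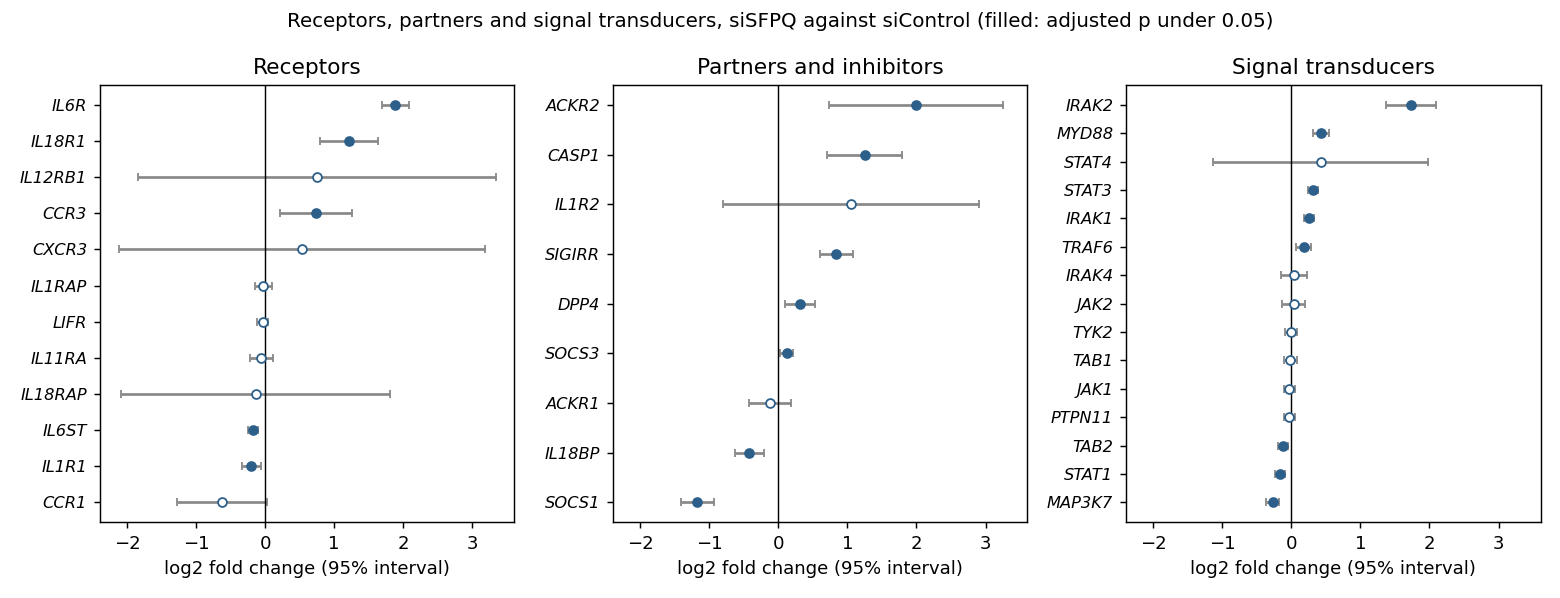
Log2 fold change with 95% interval (horizontal axes) for the tested receptor subunits, partners and inhibitors, and signal transducers of the 10 ligands (vertical axes); filled points passed an adjusted p of 0.05. IL6R and IL18R1 stand to the right among the receptors, SOCS1 and IL18BP to the left among the inhibitors, and IRAK2 is set apart from the other transducers.

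Partners, processing enzymes and inhibitors formed a list of 12 genes, 9 of them tested, of which 5 rose, 2 fell and 2 did not pass, beside 22.4% and 22.1% over all genes. CASP1, the protease that matures IL-1 beta and IL-18, had 32, 19 and 40 counts in siControl and 91, 63 and 63 in siSFPQ (log2 fold change 1.25, adjusted p = 1.86e-04). IL18BP, the secreted inhibitor that captures IL-18, went the other way, from 345, 320 and 307 counts to 238, 262 and 231 (log2 fold change -0.42, adjusted p = 0.0013). SOCS1, a feedback inhibitor of JAK-STAT signalling that interferons induce, fell from 429, 437 and 322 counts to 158, 184 and 188 (log2 fold change -1.17, adjusted p = 3.41e-10). SIGIRR, an inhibitory member of the IL-1 receptor family, rose from 150, 141 and 146 counts to 261, 280 and 246 (log2 fold change 0.84, adjusted p = 3.64e-07). Inhibitors were thus found on both sides.

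The atypical chemokine receptor ACKR2, a scavenger of CC chemokines, had 0, 7 and 7 counts in siControl and 22, 12 and 23 in siSFPQ (log2 fold change 2.0, adjusted p = 0.00826). Without siControl replicate 1, the library at 0, the log2 fold change was 1.42 (adjusted p = 0.027), under the threshold of 1.5. The call did not hold without siSFPQ replicate 1 (adjusted p = 0.0593) or without siSFPQ replicate 3 (adjusted p = 0.0577). SOCS3 and DPP4, a protease that trims chemokines including CXCL10, rose by 0.13 (adjusted p = 0.03) and 0.32 (adjusted p = 0.014) on the log2 scale, and both calls were lost without siSFPQ replicate 3. The SOCS3 call was also lost without siControl replicate 2 and with no filter beyond 1 count, and the DPP4 call without siControl replicate 3. ACKR1 had a log2 fold change of -0.12 (adjusted p = 0.556). IL1RN, which encodes the natural antagonist of IL-1, had at most 2 counts in any library, and the decoy receptor IL1R2 at most 10.

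Of 15 adaptors, kinases and STATs below these receptors, all were tested, 5 rose, 3 fell and 7 did not pass, beside 22.4% and 22.1% over all genes, with a median log2 fold change of 0.03. IRAK2, a kinase of the MYD88 complex and itself an inflammatory response gene, was the transducer past 1.5, with 39, 71 and 59 counts in siControl and 180, 174 and 211 in siSFPQ (log2 fold change 1.73, SE 0.18, adjusted p = 3.95e-10). MYD88 and STAT3 rose modestly, with log2 fold changes of 0.43 (adjusted p = 2.03e-07) and 0.32 (adjusted p = 4.47e-09). Apart from IRAK2, the fitted values of the transducers lay between -0.27 and 0.43 on the log2 scale.

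Cytokine mRNAs are short-lived, and a list of 12 RNA-binding proteins known to act on their decay was examined for that reason. All 12 were tested, 3 rose, 3 fell and 6 did not pass (median log2 fold change -0.03), near the 22.4% and 22.1% over all genes. ELAVL1 (HuR), which stabilizes mRNAs with AU-rich elements, had 5854, 5923 and 5746 counts in siControl and 3166, 3498 and 3646 in siSFPQ (log2 fold change -0.77, SE 0.04, adjusted p = 4.58e-17). RC3H1 (Roquin), which promotes decay of cytokine mRNAs, rose by 0.45 on the log2 scale (adjusted p = 9.79e-10), and ZFP36L2, which promotes decay of AU-rich mRNAs, fell by 0.36 (adjusted p = 2.36e-06). A stabilizing and a destabilizing factor were thus both among those that fell, and whether these levels bear on the ligands was not tested.

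Beyond the 10 genes, 44 other ligands of the IL-1, IL-6 and IL-12 families and of the chemokine families were listed. Of these 23 had enough counts to be tested, 9 were at 0 in every library, 7 rose and 6 fell, beside 22.4% and 22.1% over all genes, and the median log2 fold change was -0.04, near the 0.02 of all genes. The largest change in reads was in CXCL14, a constitutive chemokine of epithelia and stroma, with 17720, 18938 and 17976 counts in siControl and 2170, 2864 and 2498 in siSFPQ (log2 fold change -2.87, SE 0.05, adjusted p = 6.15e-30). CCL24, an eosinophil chemoattractant that binds CCR3, fell from 1021, 950 and 1014 counts to 369, 452 and 459 (log2 fold change -1.23, adjusted p = 3.72e-15). In siControl, CXCL14 thus had more reads than any of the 10 genes, and in siSFPQ fewer than IL18 or LIF.

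CXCL8, the neutrophil chemoattractant, had 19, 10 and 35 counts in siControl and 103, 71 and 111 in siSFPQ (log2 fold change 2.15, SE 0.29, adjusted p = 1.36e-07). CCL4, in the same cluster as CCL5, had 0, 3 and 6 counts in siControl and 7, 11 and 22 in siSFPQ (log2 fold change 2.10, adjusted p = 0.0213), but it has near-identical copies among which reads can be split and its call was lost without siControl replicate 1 (adjusted p = 0.0664) or without siSFPQ replicate 3 (adjusted p = 0.23). CCL3, next to CCL4 and named for its position after its values were seen, had 4, 19 and 17 counts in siControl and 16, 20 and 15 in siSFPQ. IL37, near IL1B, had 10, 0 and 1 counts in siControl and none in siSFPQ, most of them in siControl replicate 1. Its call (adjusted p = 0.0338) was lost with DESeq2 (adjusted p = 0.423), with the replicate block (0.0951) and without any 1 siSFPQ library. CCL4 passed the count filter only with its siSFPQ counts, and IL37 through its siControl counts, so both calls are descriptions.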

How the data were processed

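Poly(A) RNA of U-2 OS cells was sequenced in 3 siControl and 3 siSFPQ libraries, prepared with a stranded mRNA kit. Groups and replicate numbers follow the sample labels. The authors aligned reads with STAR (version 2.7.9a, per the submitters' processing notes) to GRCh38 and deposited raw counts per Ensembl gene, whole numbers without normalization. The strand setting of the counting is not given in the sources used here. All 6 columns were used and 0 columns were left unused.

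Genes with at least 10 counts in total were tested on the whole table in R 4.3.3 by the quasi-likelihood method of edgeR 4.0.16, after TMM scaling, without covariates and with a prior count of 0.125, with Benjamini-Hochberg adjustment over 29022 genes. Genes rose or fell at an adjusted p under 0.05. Thresholds on the log2 fold change were -1.5 and 1.5, as in the study's methods, which used DESeq2. Normalized counts are counts divided by the effective library size and scaled to a common size. Standard errors are the log2 fold change divided by the root of its F statistic. Ratios of summed counts have exact conditional binomial 95% intervals, which cover counting error only, since reads are not independent molecules.

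Gene names, spans and exon lengths came from GENCODE release 44 on GRCh38, matched for 60463 of 60664 identifiers (99.67%). Promoters came from RefSeq. The members and the 5 pathway lists were chosen with earlier results of these data known, and the pathway lists are described by counts and medians only. All receptors, partners and inhibitors could be named, and from the other lists genes past both thresholds and the 3 with the lowest adjusted p. Some listed genes are not reported here by name. Alternatives were filterByExpr or no count filter, RLE factors or library size alone, DESeq2 1.42.0, leaving out each library in turn, a block for the replicate number, a test of protein-coding genes alone, a prior count of 2 and a log2 fold change threshold of 1. The scripts were tested on simulated counts. Replicates of a condition differed by more than sampling noise.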

Additional observations from a re-analysis of the deposited data

How the results depend on the processing

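Of the 10 genes, 9 kept their direction and their side of the threshold in each alternative that could be fitted. For IL1B and CXCL10, which passed the count filter through their siSFPQ counts, this describes the calls and does not support them. IL1B and IL6 were not tested under filterByExpr, which left 6 genes higher and 3 past both thresholds. The exception was CCL2, with log2 fold changes of -0.506 to -0.297 when each library was left out, so that 0 to 1 of the 10 genes were called lower. A fold threshold of 1 in place of 1.5 gave 6 genes past both thresholds. With library size alone in place of TMM, IL1RAP, IL11RA and LIFR turned to 0.038, 0.011 and 0.029, none of them past the threshold, and 1 receptor fell in place of 2. With each library left out, IL1RAP lay between -0.101 and 0.057 and IL11RA between -0.102 and 0.000, 1 to 3 receptors fell, and 2 to 5 partners and inhibitors rose. The cause was not tested. Over 361 alternative values of 28 other named genes, 334 kept direction and side. The labels do not state that replicate numbers pair the samples. Deviations of same-numbered libraries correlated at 0.00191, 0.0121 and 0.0153, and each library correlated best with its own number. Correlations over all genes, many with few counts, cannot show whether the samples were paired. With the replicate block, 7 of the 10 genes were higher, 1 lower and 4 past both thresholds, as without it. Over all genes, calls past both thresholds went from 1609 higher and 1384 lower to 967 and 996 under filterByExpr, 563 and 835 among protein-coding genes only, and 1419 and 1240 with the block. At this depth, differences below a few counts per library could not be detected.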
